A study of Mus musculus with 24 samples.

Results

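The cytosolic ribosomal protein genes encode the proteins of the 60S (Rpl, Rplp) and 40S (Rps, Rpsa) ribosomal subunits. They were taken by symbol from the mouse mm10 gene annotation, which gave 85 of 21938 protein-coding genes, 52 of the large and 33 of the small subunit. Kinase genes (Rps6k), pseudogenes and genes for mitochondrial ribosomal proteins were left out. The genes were examined in murine erythroleukemia (MEL) cells, a mouse line arrested at the proerythroblast stage that matures toward normoblasts when DMSO is added to the medium. Cells were collected before DMSO (day 0) and on days 2 and 4 of DMSO, with 2 cultures per day, and proteins were crosslinked to RNA with formaldehyde in whole cells of all groups. Protein interaction profile sequencing (PIP-seq) then digested each lysate with a nuclease of single-stranded RNA (ssRNase, RNaseONE) or of double-stranded RNA (dsRNase, RNase V1), either while proteins still shielded the RNA or after proteinase K had removed them. That gave 24 libraries, 8 per day. A protein-protected site (PPS) is a stretch enriched in the protein-shielded library over its protein-free partner.

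PPSs came as 1 merged list per day, and each entry named the nuclease and replicate of the calls merged into it, so that 4 call sets per day could be told apart. Coverage below is the percent of nucleotides inside a PPS on the gene's strand. A PPS that joined calls of several sets was counted with its whole extent for each of them, so the spread between replicates is understated. With 2 replicates per day the smallest p of a two-sided exact test is 0.333, so no test was run. Days are compared by whether both replicate values of 1 day lay outside both values of the other, and counts of genes are set beside the share of all tested genes that did the same. A change in the amount of a message can change its coverage, and the number of cells and the RNA per cell cannot be told apart in bulk lysates. Message levels were not analysed here, and their part in the results was not tested.

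Of the 85 genes, 69 (43 large, 26 small) held an exonic PPS on at least 1 day and are described below beside 9481 other protein-coding genes. A gene passed this filter through any day, so a gene protected on a single day had to differ between days. Of the other 16, 4 are paralogues of other members. Rpl3l, Rpl10l and Rps27rt had no PPS, and Rpl39l had only PPSs of 20 to 40 nt, the length of ribosome footprints, which were left out. The last 12 were not analysed here, and no level is inferred for them. PPSs on ribosomal protein genes numbered 550, 444 and 462 on days 0, 2 and 4, of 114907, 119487 and 122038 in the whole lists. Call sets differed in size: over all other genes the dsRNase sets held 25907 and 30215 PPSs at day 0, 28096 and 13592 at day 2, and 50047 and 36718 at day 4. All 12 erythroid markers checked held an exonic PPS, with median exonic coverage of 15.7%, 31.3% and 42.4% on the 3 days. Of 6 markers of other blood cells, 2 (Pf4 and Ptprc) held one.

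A vertebrate cell makes ribosomal proteins from single-copy genes that are transcribed at high rates, with short introns. Their messages start with a C followed by a run of pyrimidines, the terminal oligopyrimidine (TOP) tract, through which mTOR signalling and the RNA-binding protein LARP1 set how many are translated. Many of the introns carry small nucleolar RNAs (snoRNAs), which are released from the spliced intron and guide methylation (box C/D) or pseudouridylation (H/ACA) of ribosomal RNA. Mutations of ribosomal protein genes cause Diamond-Blackfan anaemia in people, a failure of red cell precursors, so the family has a particular place in erythroid biology.

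The start of the message is shown for the first 6 Diamond-Blackfan anaemia genes with a pyrimidine run near the annotated start, where a TOP tract would lie. Each line gives 10 bases before and 20 bases from the annotated RefSeq start (GRCm38.p6, the same coordinates as mm10), 5′ to 3′, with the longest pyrimidine run that begins with C in capitals. Relative to the annotated start the runs began at 6, -2, -5, -3, 4 and -4 bases, in the order shown (negative values lie before it). None of the runs therefore began at the annotated start.
Rps19, chr7:24884903-24884932, plus strand: agcggggtgtggagggCTCTCCCacgcggt
Rps24, chr14:24490668-24490697, plus strand: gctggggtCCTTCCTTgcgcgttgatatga
Rpl35a, chr16:33056472-33056501, plus strand: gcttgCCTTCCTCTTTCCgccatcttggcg
Rps10, chr17:27635225-27635254, minus strand: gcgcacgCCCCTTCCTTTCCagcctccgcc
Rps26, chr10:128626487-128626516, minus strand: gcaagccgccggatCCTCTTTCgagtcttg
Rpl15, chr14:18270967-18270996, minus strand: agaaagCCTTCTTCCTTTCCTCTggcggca
RefSeq start sites were found for 65 of the 85 genes. A C followed by at least 5 more pyrimidines, on the gene's strand and within 10 bases of the start, was present at 46.8% of their 77 starts and at 18.5% of all 32851 starts. Counted once per gene, the shares were 53.8% of 65 genes and 21.1% of 27025 genes.

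The snoRNAs inside the introns are shown because the median covered share of a snoRNA was 100% on each day. Single snoRNAs departed from this, among them Snora62 below, with 7.38% at day 4. The first 30 bases of box C/D snoRNAs follow, with box C (TGATGA) in capitals.
Snord33, in Rpl13a, chr7:45126918-45126947, minus strand: gcagcttgTGATGAgacatctcccactcat
Snord32a, in Rpl13a, chr7:45127435-45127464, minus strand: ggagtccaTGATGAgcaacactcaccatct
Snord4a, in Rpl23a, chr11:78181727-78181756, minus strand: ggtgcatgTGATGAcattatttagcgacca
Snord21, in Rpl5, chr5:107904555-107904584, plus strand: gccaaTGATGAcaccacactaactgagcag
Snord100, in Rps12, chr10:23785794-23785823, minus strand: gctgtacaTGATGAaaacagtctccctctt
The last 30 bases of H/ACA snoRNAs follow, with the ACA near the 3′ end in capitals.
Snora33, in Rps12, chr10:23785347-23785376, minus strand: cctttaaggtccctgaaagtggctACAgta
Snora62, in Rpsa, chr9:120130534-120130563, plus strand: tggggtttgatagtaacctttgctACAaaa
Snora70, in Rpl10, chrX:74272591-74272620, plus strand: gggctgcctcaagggaccttggagACAatt
Of 47 annotated snoRNAs in the introns, 15 (31.9%) had box C in their first 20 bases and box D (CTGA) in their last 15, 20 (42.6%) had ACA in their last 8, and 12 (25.5%) had neither arrangement. Among all 1507 annotated snoRNAs the shares were 20.2%, 45.7% and 34.1%.

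Protection of the coding sequence differed most between days in the dsRNase libraries. Pooled over the 69 genes, using the annotated transcript with the longest coding sequence (CDS) of each and 33670 CDS nt in all, the replicates had 17.5% and 18.2% of CDS nucleotides inside a dsRNase PPS at day 0. Coverage was lower at day 2, with 10.5% and 11.6%, and higher at day 4, with 32.9% and 23.0%. Neither day 4 value overlapped the day 0 values, and the difference of the means was 10.1 percentage points, with 4.81 to 15.4 over the 4 pairs of replicates. The ssRNase values of the same sequences were far lower and lay close together, at 4.64% and 4.45%, 3.61% and 2.52%, and 4.11% and 3.41% on the 3 days. In other genes the dsRNase values were 5.61% and 6.36% at day 0, 4.91% and 3.03% at day 2, and 7.24% and 5.96% at day 4, so those of day 0 and day 4 overlapped. The dsRNase call sets of all other genes were also larger at day 4 and smallest in replicate 2 of day 2, and the part of call set size in the difference was not tested. With 114907 of the best-scoring sites per day, counted over both nucleases together, the difference was 9.88 percentage points. That setting did not make the dsRNase call sets equal in size, so it cannot tell their part in the difference. With PPSs called in both replicates the difference was 8.08.

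**Figure D1:**
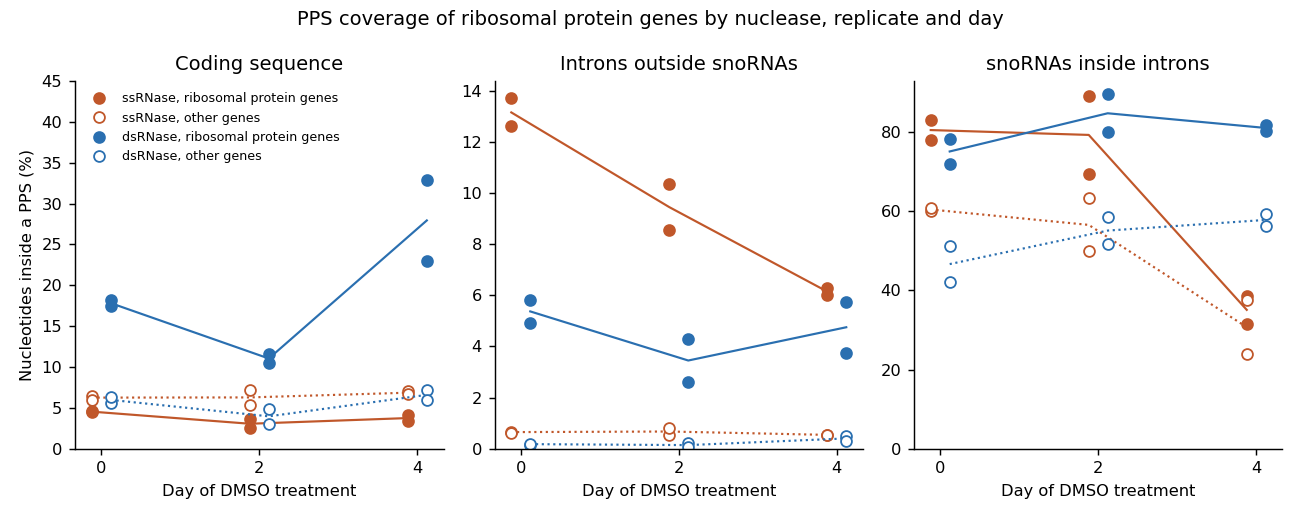
Percent of nucleotides inside a PPS (y axis) against day of DMSO (x axis) in the CDS, in introns outside snoRNAs and in intronic snoRNAs, for ribosomal protein genes (filled) and other genes (open). Each point is 1 replicate of 1 nuclease and lines join the means. The dsRNase points of the CDS at day 4 (32.9% and 23.0%) lie above all others in that panel, while the ssRNase points of the introns and snoRNAs of ribosomal protein genes are lowest at day 4.

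Both subunits had this order of days. Large subunit genes had dsRNase CDS coverage of 20.5% and 20.1% at day 0, 12.9% and 13.6% at day 2, and 33.0% and 23.7% at day 4. Small subunit genes had 12.1% and 14.9%, 6.34% and 8.19%, and 32.8% and 21.7%. Large subunit coverage thus lay above that of the small subunit at days 0 and 2, and the values of the subunits overlapped at day 4. Genes for mitochondrial ribosomal proteins, which build a separate ribosome, had 10.3% and 11.3%, 5.54% and 4.67%, and 7.51% and 6.72%, with the day 4 values below those of day 0. The 10 measured translation factors and other proteins with TOP messages had 22.2% and 20.6%, 12.3% and 10.3%, and 30.2% and 24.9%.

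Gene by gene, 34 of the 69 ribosomal protein genes (22 of 43 large, 12 of 26 small) had both day 4 dsRNase CDS values above both day 0 values, where 19.5% of the 9550 genes tested did. The opposite held for 7 genes, all of the large subunit, where 16.7% of all genes tested did. In the ssRNase libraries 7 ribosomal protein genes were higher at day 4 (20.9% of all genes) and 16 were lower (16.3%). Of the mitochondrial ribosomal protein genes 11 of 78 were higher with dsRNase and 25 were lower.

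Rps20, a protein of the head of the 40S subunit, had dsRNase coverage over 25.5% of its CDS in both replicates at day 0, 17.9% and 20.7% at day 2, and 90.2% and 69.5% at day 4. Rps24 had 4.26% and 17.3%, then 0% and 26.3%, then 57.4% and 40.9%. The day 4 values of both genes stood apart from those of the earlier days, which overlapped each other in Rps24. Rpl26, which sits near the exit of the peptide tunnel, had 33.6% and 36.3% at day 0, 33.6% in both replicates at day 2, and 63.9% in both at day 4. Rpl6 had 13.1% and 7.21%, 13.2% and 15.0%, and 49.7% and 39.4%. Rpl22, an RNA-binding protein of the large subunit, had 35.2% and 21.9%, 11.7% and 25.8%, and 63.0% and 50.5%. All 3 large subunit genes had a gap between day 4 and the earlier days.

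Some of the genes that went the other way follow, and by this choice they had coverage at day 0. Rpl23 had 56.0% and 35.0% of its CDS inside a dsRNase PPS at day 0, 12.1% and 11.2% at day 2, and 9.29% in both replicates at day 4. Rpl38, which is known for its role in the translation of Hox messages, had 58.1% in both replicates, then 47.1% and 75.7%, then 6.19% and 25.7%. In Rpl23 coverage was already low at day 2, whereas Rpl38 overlapped its day 0 values then. Rpl30 had 58.3% and 13.6%, 35.1% in both, and 2.32% in both, so its day 0 replicates differed more than most. Rpl15, the gene with the longest pyrimidine run shown above, had 72.2% in both replicates at day 0, 0% and 16.2% at day 2, and 67.5% and 55.6% at day 4.

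**Figure D2:**
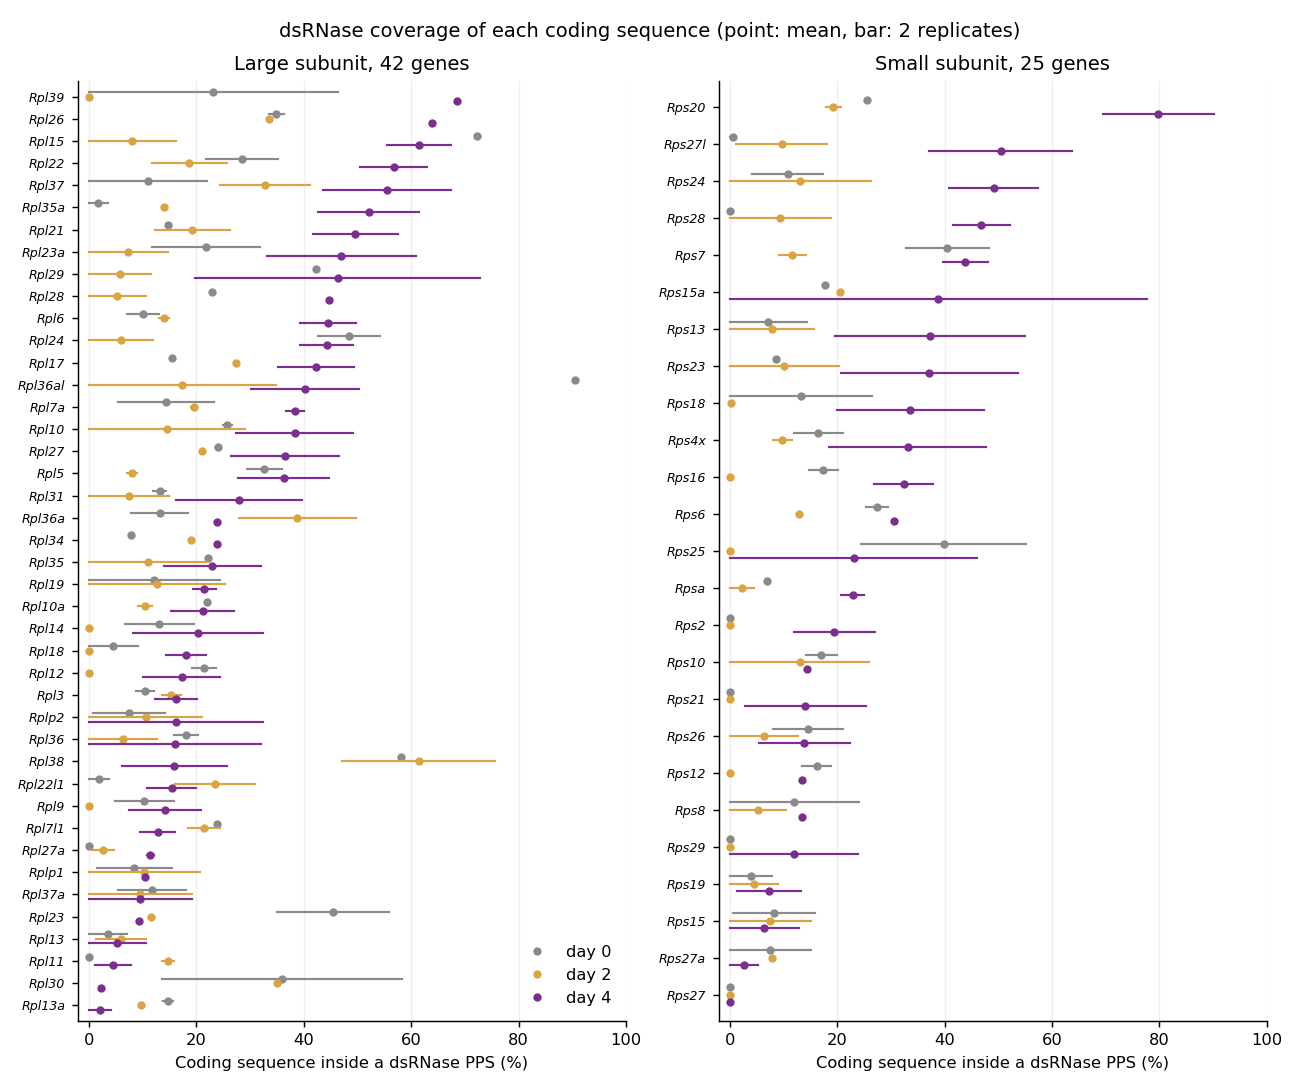
Percent of each CDS inside a dsRNase PPS (x axis) for 67 of the 69 genes, large subunit left and small subunit right, ordered by the day 4 mean. Points are means of 2 replicates and bars join them. Rps20, Rpl39 and Rpl26 head their panels at day 4, and Rpl36al, Rpl38, Rpl30 and Rpl23 are seen with day 0 points right of day 4.

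Among 19 measured Diamond-Blackfan anaemia genes, 9 had higher dsRNase CDS coverage at day 4 without overlap, where 19.5% of all genes did, and 1 (Rpl15) had lower, where 16.7% did. Rps19, the most often mutated of them and needed to mature the 3′ end of 18S rRNA, was covered little, at 0% and 7.86% at day 0, 0% and 8.96% at day 2, and 13.4% and 1.42% at day 4. Its replicates differed more than its days. Rpl5, which with Rpl11 and 5S rRNA binds Mdm2 when ribosome assembly fails, had 29.5% and 35.9%, 7.07% and 8.98%, and 44.8% and 27.8%. Rpl11 had 0% in both replicates, 15.9% and 13.7%, and 1.12% and 7.87%. These partners thus had opposite orders at day 2, the lowest day of Rpl5 and the highest of Rpl11. Rpl35a had 3.64% and 0%, 13.9% in both, and 61.5% and 42.7%, higher on each later day. Rps28 and Rps7 are proteins of the 40S subunit. Rps28 was at 0% in both replicates at day 0, at 18.8% and 0% at day 2, and at 41.5% and 52.2% at day 4. Rps7 had 32.8% and 48.3%, 9.11% and 14.3%, and 39.7% and 48.1%, and so returned to its day 0 range. Rps27 and Rps29 held a single PPS each, at day 4 and in 1 replicate.

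The protected positions were found along the CDS and just past the stop codon. Few lay in 5′ UTRs, where dsRNase coverage was 1.73% and 1.93%, 0.832% and 1.86%, and 2.24% and 1.92% on the 3 days. dsRNase PPSs covered on average 15.1% and 15.9% of the first 100 CDS nt at day 0, 8.30% and 11.5% at day 2, and 29.9% and 21.2% at day 4. The last 100 CDS nt had 20.3% and 20.8%, 10.7% and 12.3%, and 40.4% and 30.04%. Just past the stop codon day 2 stood further from the other days than in either of these windows. In the first 50 nt of the 3′ UTR, in 66 genes long enough, coverage was 25.2% and 28.4% at day 0, 5.74% and 3.68% at day 2, and 43.8% and 35.9% at day 4. A dsRNase PPS touched this window in 23 and 24 genes at day 0, in 6 and 5 at day 2, and in 38 and 31 at day 4. These counts are given without a share of other genes. Mean coverage of the window in other genes was 6.60% and 6.65%, 4.40% and 2.66%, and 8.44% and 6.97%. The day 2 values of the family were thus close to those of other genes, and its values of the other days lay far above them. The ssRNase values of the window in ribosomal protein genes were 2.85% and 0.455% at day 0, 0% and 3.10% at day 2, and 0% and 2.88% at day 4. Over whole 3′ UTRs 13 of 67 genes had higher dsRNase coverage at day 4, where 17.8% of all genes did, and 10 had lower, where 8.73% did.

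**Figure D3:**
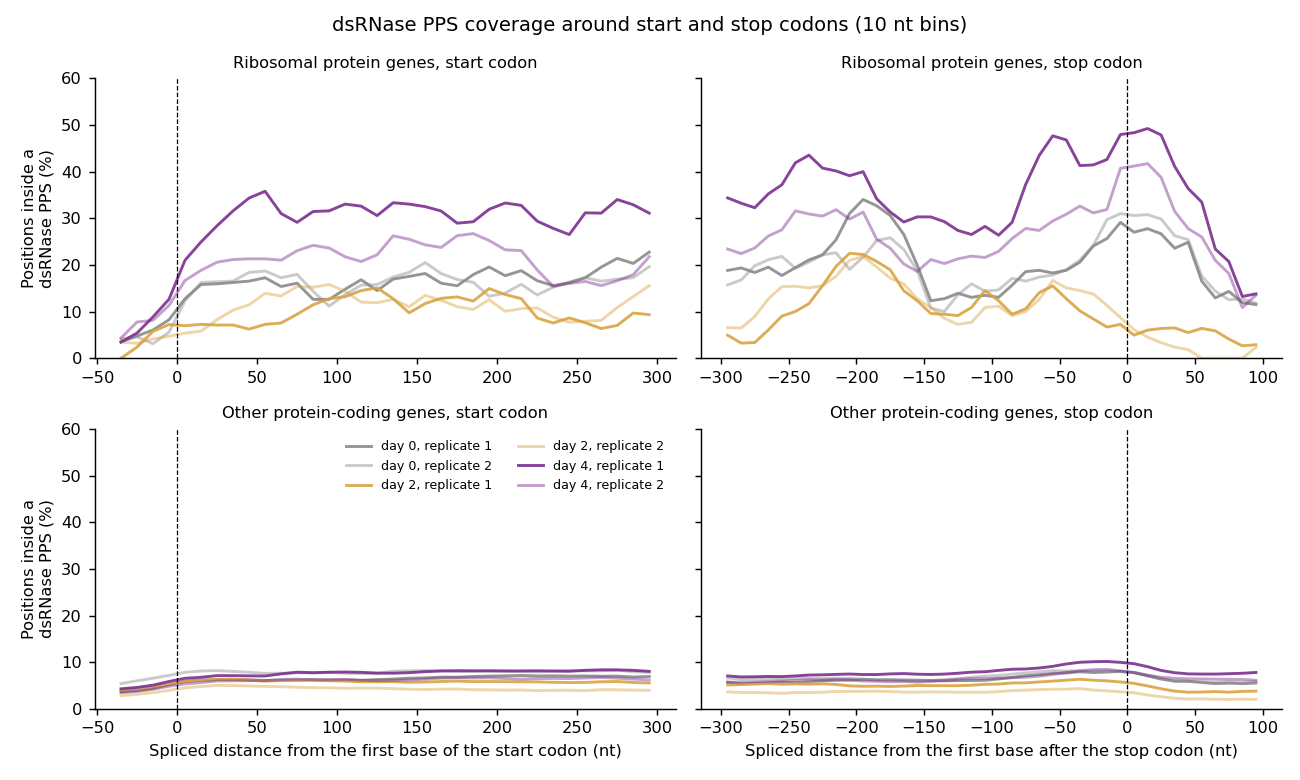
Mean percent of genes whose position lies inside a dsRNase PPS (y axis), in 10 nt bins of spliced distance from the start codon (left) and the stop codon (right), for ribosomal protein genes (top) and other genes (bottom), with 1 line per replicate and day. In ribosomal protein genes the day 4 lines are the highest within the CDS and past the stop codon and the day 2 lines are the lowest there, while the lines of other genes stay low.

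Within a day the nucleases differed on the CDS. dsRNase coverage lay above ssRNase coverage in both replicates for 34 ribosomal protein genes at day 0, where 17.7% of all genes did, for 23 at day 2 (7.21%), and for 53 at day 4 (17.1%). Reads that map to several places could be shared with processed pseudogenes of these genes, since up to 10 hits per read were allowed in the alignment. The 294 annotated ribosomal protein pseudogenes, 152960 nt in all, had dsRNase coverage of 0.379% and 0.279% at day 0, 0.133% and 0.404% at day 2, and 0.552% and 0.185% at day 4. Their values overlapped between days.

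Introns of ribosomal protein genes were protected far more than those of other genes with both nucleases. Their ssRNase coverage lay above their dsRNase coverage at days 0 and 2, was lower on each later day, and overlapped it at day 4. Over 170350 intron nt of 68 genes, ssRNase coverage was 15.5% and 14.6% at day 0, 10.8% and 12% at day 2, and 7.19% and 6.73% at day 4. The replicates of the 3 days did not overlap, and the difference between day 4 and day 0 was -8.09 percentage points, with -8.78 to -7.40 over the pairs. Other genes had a small part of this, with 0.68% and 0.63%, 0.54% and 0.81%, and 0.53% and 0.56%. Intron coverage with dsRNase in ribosomal protein genes was 6.82% and 7.85%, 6.42% and 5.07%, and 7.90% and 5.91%, and its day 4 values overlapped those of day 0. Whole-cell lysates hold unspliced transcripts as well as mature messages, and which of these, or of excised introns, carried the sites was not measured.

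By gene, 42 of 68 had lower ssRNase intron coverage at day 4 in both replicates (31 of 42 large, 11 of 26 small), where 22.9% of all genes did, and 1 gene, Rpl7l1, had higher, where 14.3% of all genes did. The Rpl7l1 values were small, at 0.863% and 1.69% against 2.13% in both replicates. Among the Diamond-Blackfan anaemia genes 9 of 19 were lower, among TOP translation factors 7 of 10, and among mitochondrial ribosomal protein genes 14 of 78. Pooled over introns, TOP translation factors had ssRNase coverage of 5.25% and 4.51% at day 0 and 1.53% and 2.28% at day 4. Mitochondrial ribosomal protein genes had 0.681% and 0.936%, and then 0.299% and 0.288%. In both lists, and in other genes, the pooled day 4 values lay below those of day 0 without overlap. Within a day ssRNase exceeded dsRNase coverage of the introns in 41 genes at day 0 (34.7% of all genes), in 37 at day 2 (40.7%) and in 15 at day 4 (15.1%).

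Rpl13a, whose phosphorylated protein silences inflammatory messages in myeloid cells, had ssRNase PPSs over 69.9% and 46.2% of its introns at day 0, 53.6% and 44.2% at day 2, and 21.4% and 12.3% at day 4. Rpl5 had 26.9% and 29.3%, 16.1% and 20.1%, and 8.39% and 4.69%. Rpl12 had 39.2% and 55.2% at day 0 and 18.7% and 3.48% at day 4. In each of these genes the day 4 values lay below those of day 0 by a wide margin. Rpsa, which encodes a 40S protein also known as the laminin receptor, went from 19.0% and 20.1% at day 0 to 0% in both replicates at day 4. Rps16 went from 19.5% and 17.2% to 0% in both, and Rps19 from 24.3% and 19.4% to 5.90% and 3.58%. Rpl3, of the peptidyl transferase centre, had 34.5% and 35.2%, 25.8% and 24.2%, and 20.96% and 19.7%, a smaller difference in the gene with 33 intronic PPSs among 52 on the 3 days. Rps24 was an exception. It had the most intronic PPSs, 49 of 66, and ssRNase intron coverage of 26.3% and 29.5%, 22.04% and 24.2%, and 28.6% and 34.1%, with overlap between days 0 and 4. Its dsRNase intron coverage was 9.03% and 9.38% at day 0 and 28.1% and 26.7% at day 4.

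**Figure D4:**
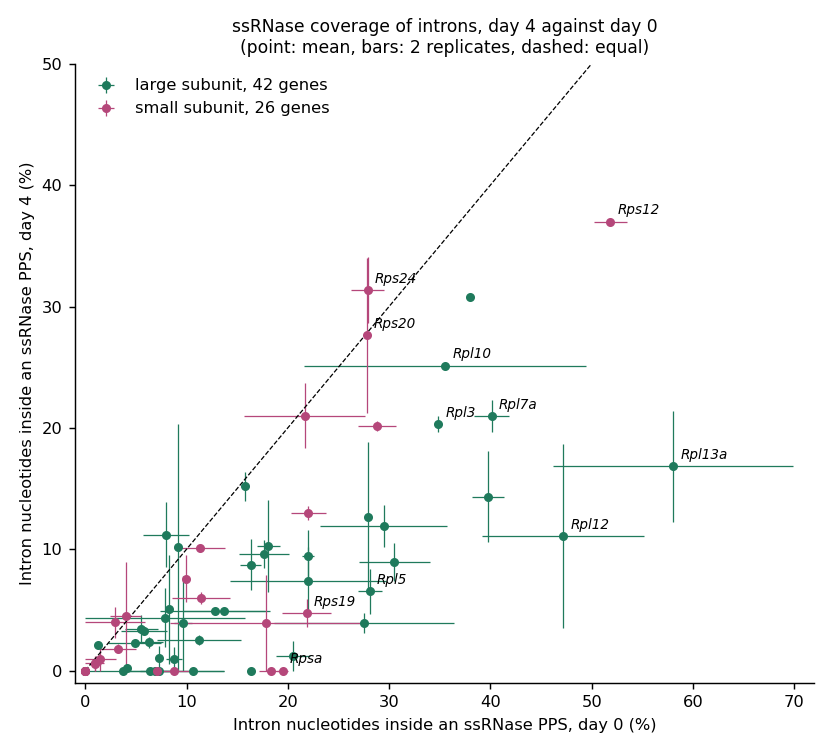
Percent of intron nucleotides inside an ssRNase PPS at day 4 (y axis) against day 0 (x axis) for 68 genes. Points are means of 2 replicates, bars join them, and the dashed line marks equal values. Most points lie below the line, and Rps24 lies on its other side.

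Introns of these genes are short, with a median of 370 nt over 294 introns against 1234 nt over 102196 introns of other genes, so they were compared by length after introns with a snoRNA had been left out. Introns under 250 nt had ssRNase coverage of 8.57% and 10.9% at day 0 and 7.42% and 3.64% at day 4. Those of 250 to 1000 nt had 10.8% and 9.88%, and then 5.24% and 5.31%. Introns of at least 1000 nt had 12.6% and 11.2%, and then 5.37% and 5.24%. In each length class the day 4 values lay below those of day 0, and other genes had between 0.50% and 1.19% in the same classes on these days.

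Intronic snoRNAs were almost always inside a PPS. Of the 47 snoRNAs, in 25 host genes, a PPS touched 44 at day 0, 45 at day 2 and 44 at day 4, and the median covered share of a snoRNA was 100% on each day. Only Snord14a in Rps13 and Gm26448 in Rpsa had none, and Gm22077 in Rpl3 was touched at day 2 only. The nucleases differed by day. ssRNase calls touched 43, 44 and 28 snoRNAs on days 0, 2 and 4, and dsRNase calls touched 43, 45 and 44. Over the 4808 snoRNA nt, ssRNase coverage was 78.0% and 83.0% at day 0, 89.1% and 69.5% at day 2, and 38.7% and 31.5% at day 4, whereas dsRNase coverage was 72% and 78.2%, 79.9% and 89.6%, and 81.8% and 80.3%. The day 4 ssRNase values were thus separate from those of the other days. snoRNAs in introns of 143 other host genes had ssRNase coverage of 60.1% and 60.8%, 63.2% and 49.9%, and 37.6% and 23.9%, so they had the same order and a smaller difference, which was not tested against that of the ribosomal protein genes. Their dsRNase coverage was 42.1% and 51.2%, 51.7% and 58.5%, and 59.4% and 56.3%, with both day 4 values above those of day 0.

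In each motif class ssRNase calls touched fewer snoRNAs at day 4 than at day 0. ssRNase calls touched 13 of the 15 with boxes C and D at days 0 and 2 and 10 at day 4, 18, 19 and 11 of the 20 with an ACA end, and 12, 12 and 7 of the 12 with neither. No share of other snoRNAs stands beside these counts. The classes rest on motif matches only, and some snoRNAs with neither arrangement, such as Snord34 and Snord42a, carry Snord names. Snord33, Snord21 and Snord4a, whose first bases are printed above, had no ssRNase call at day 4 but kept a dsRNase call in both replicates. Snord4a had no ssRNase call at day 2 either. Snord32a and Snord100, with the same box C, kept ssRNase calls. Snora62 in Rpsa was covered over 100% of its length at days 0 and 2 and over 7.38% at day 4. Snora33 and Snora70 kept ssRNase calls on every day.

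**Figure D5:**
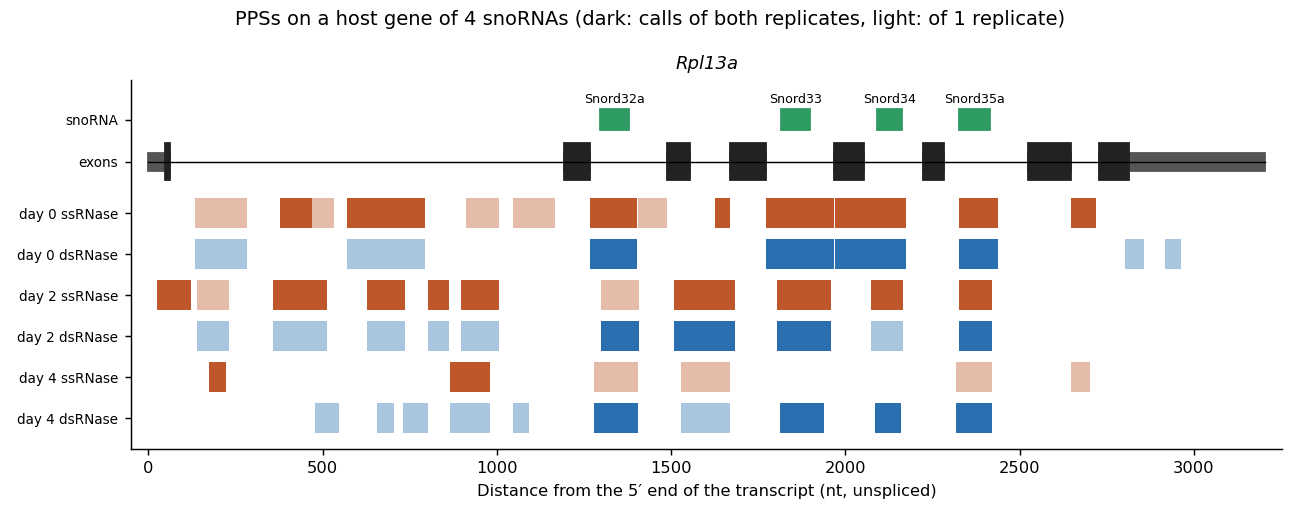
PPSs along Rpl13a by unspliced distance from the 5′ end of the transcript (x axis, nt), with exons in black and 4 snoRNAs in green. Dark bars join calls of both replicates and light bars are of 1 replicate. The 13 ssRNase PPSs of day 0 stand against 6 at day 4, and dsRNase bars over the snoRNAs are present on all days.

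The intron values were also computed without snoRNA positions. ssRNase intron coverage of the rest was 13.7% and 12.6% on day 0, 8.55% and 10.3% on day 2, and 6.28% and 6.01% on day 4, and the difference between days 4 and 0 was -7.00 percentage points. The snoRNAs lay under some of the highest scores, which are the enrichment scores given by the authors. The highest of day 0 was a PPS of 139 nt in Rpl37 (chr15:5118407-5118545, score 78.3), over Snord72 and called in all 4 sets. That of day 2 was a PPS of 135 nt in Rps16 (chr7:28351511-28351645, score 77.5), over the snoRNA AF357399. That of day 4 was a PPS of 187 nt in an intron of Rps24 (chr14:24493835-24494021, score 95.7), called in all 4 sets, with no annotated snoRNA. The middle 30 bases of each are printed, plus strand of mm10, since they mark the strongest sites of the family.
Rpl37, day 0, chr15:5118461-5118490: ttcagcatttaactgagataagctcattac
Rps16, day 2, chr7:28351563-28351592: agaacaaatcctcttttgcaacccagaact
Rps24, day 4, chr14:24493913-24493942: agtgattttgagtagtagctgcataccagc

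Coverage of all annotated exons, with both nucleases joined, had no settled direction between days 0 and 4. Ribosomal protein genes had a median of 19.2% at day 0, 13.6% at day 2 and 18.2% at day 4, and the replicate medians were 13.0% and 14.7%, 9.82% and 11.2%, and 17.0% and 12.01%. Other genes had 5.93%, 5.55% and 5.95%. The median difference between day 4 and day 0 was -0.69 percentage points, with -1.41 to 0.97 over the pairs on both sides of 0. It was -1.89 in the large and 0.76 in the small subunit, and both ranges crossed 0. Between day 2 and day 0 it was -5.46 percentage points in the merged lists, -6.04 in the large and -3.29 in the small subunit, beside -0.43 in other genes. Over the replicate pairs it was -3.75 to -2.70 in the family, which does not include the merged value. It was -0.98 and -0.49 without replicate 1 or replicate 2 of day 0, -8.08 and -8.78 without those of day 2, and -0.93 with PPSs called in both replicates, so its size was not settled. Annotated exons include parts of retained-intron transcripts, and on exons of the longest-CDS transcript alone the day 4 difference was 6.52 percentage points.

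By gene, 13 of 69 had higher exonic coverage at day 4 in both replicates (30.8% of all genes) and 21 had lower (25.4%). At day 2, 6 had higher (22.3%) and 31 had lower (30.4%) coverage than at day 0. No small subunit gene was among the 6. The highest mean coverage over the days belonged to Rps12 (44.0%), Rpl10 (40.6%) and Rpl36a (36.1%). Rps12 lies at chr10:23785183-23787275 and hosts 3 snoRNAs. Its exonic coverage was 44.7% and 48.8%, 32.4% and 40.7%, and 40.1% and 37.6%.

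The largest exonic differences without overlap between days 0 and 4 were found in genes of different kinds. Rps27l, a p53-responsive paralogue of Rps27, had 9.31% and 6.13% at day 0, 6.99% and 6.62% at day 2, and 22.2% and 32.5% at day 4, with dsRNase CDS coverage of 0% and 1.27%, 18.1% and 1.27%, and 37.1% and 63.8%. Rps21 had 0.494% and 0%, 0% in both, and 16.0% and 9.14%, and rested on 3 PPSs in all. Rpl17 had 8.14% and 12.4%, 11.4% in both, and 25.8% and 17.0%. Rpl7a had 23.9% and 31.9%, 28.4% and 28.1%, and 40.8% and 37.1%. All 4 genes had day 4 values above both earlier days. Of those with lower values, Rpl13a went from 41.0% and 30.4% to 27.9% and 20.1%, and Rps19 from 19.1% and 16.5% to 6.10% and 3.93%. In Rps19 the exonic and the intronic values were both lower at day 4. Such values are not independent where annotated exons overlap introns of the longest-CDS transcript. Rpl30, Rpl23, Rps27a and Rps12 were the other genes with lower values. Rpl30 combined a CDS at 2.32% with dsRNase coverage of 100% of its 3′ UTR at day 4 in both replicates, where day 0 had 9.43%.

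The split of the PPSs themselves moved the same way. A PPS was put in every class it touched by at least 1 nt. At day 0, 178 of 550 PPSs touched a CDS (32.4%, Wilson 95% interval 28.6 to 36.4), at day 2 29.5%, and at day 4 48.5% (44.0 to 53.0). The difference between days 4 and 0 was 16.1 percentage points (Newcombe interval 10.1 to 22.03, counting error only, and 13.3 to 19.0 over the replicate pairs), beside -2.44 in other genes. It was 15.5 points in the large and 17.3 in the small subunit. PPSs wholly inside introns of the longest-CDS transcript were 58.5% at day 0, 64.6% at day 2 and 46.1% at day 4, a difference of -12.4 points between days 4 and 0, beside 1.09 in other genes. PPSs that touched an intron by at least 1 nt differed by -8.09 points, by -0.40 among those with an ssRNase call and by 1.05, the opposite direction, among those with a dsRNase call, so this difference was not seen within either nuclease. At day 2 the small subunit had 70.9% of its PPSs inside introns against 58.2% at day 0, and the large subunit had 61.4% against 58.7%.

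The nuclease of the calls differed between days as well. PPSs with ssRNase calls only made up 48.9% of the family's PPSs at day 2 and 19.0% at day 4, and those with dsRNase calls only made up 25% and 56.1%. Between days 0 and 4 the first share differed by -27.0 points and the second by 25.7, beside -19.3 and 13.6 in other genes. Within PPSs with a dsRNase call the CDS share differed by 6.25 points and within those with an ssRNase call by 9.43, both smaller than the 16.1 points of all PPSs. Calls of both replicates stood behind 43.5%, 45.5% and 47.6% of the family's PPSs on the 3 days, and behind 30.1%, 30.1% and 35.2% of those of other genes. The intervals cover counting error only.

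The same places were used on several days in part. When overlapping PPSs of all days were joined, 747 regions resulted, and 203 of them (27.2%) held a PPS on every day. Of 377 regions inside introns, 89 (23.6%) were seen at day 0 only and 25 (6.63%) at day 4 only. Of 359 regions that touched the message, 63 were seen at day 0 only and 76 at day 4 only. The same split was not made for other genes, so these shares have no background beside them.

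The 5′ end, where the TOP tract lies, was protected less than the CDS, whose coverage with both nucleases joined was 25.5%, 18.4% and 37.4%. The first 50 spliced nt had a mean coverage of 5.88% at day 0, 6.09% at day 2 and 3.28% at day 4, with replicates at 3.94% and 3.48%, 4.67% and 3.65%, and 2.58% and 0.696%. Other genes had 5.78%, 6.05% and 4.29%, close to the ribosomal protein genes on each day. A PPS touched this window in 8 genes at day 0, 9 at day 2 and 6 at day 4 of 69. No share of other genes stands beside these counts. The day 4 replicates lay below those of day 0, but over the first 100 nt the difference was 0.42 percentage points instead of -2.61. Whole 5′ UTRs had 5.16%, 4.57% and 2.84% in ribosomal protein genes and 9.80%, 9.95% and 7.83% in other genes. With ssRNase alone ribosomal protein genes had 2.32% and 2.08%, 3.12% and 3.47%, and 0% and 0.129%. Small subunit 5′ UTRs were at 0% with ssRNase in both replicates of each day. Other genes had 5.89% and 5.39%, 5.92% and 6.78%, and 4.47% and 4.13% with ssRNase. In both lists the day 4 ssRNase values lay below those of day 0. LARP1, which binds the tract and the cap, has a message with exonic coverage of 21.8%, 25.1% and 24.5%. Binding of the LARP1 protein to the tracts of these messages was not measured.

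Paralogues within the family differed. Rpl22l1, the paralogue that can replace Rpl22, had dsRNase CDS coverage of 3.83% and 0%, 30.9% and 16.1%, and 10.9% and 19.9%, so its mean was highest at day 2, where that of Rpl22 was lowest, and its values of days 2 and 4 overlapped. Rpl36al, a close relative of Rpl36a, had 90.6% in both replicates, 34.9% and 0%, and 50.3% and 30.2%, while Rpl36a had 18.6% and 7.86%, 28.0% and 49.7%, and 23.6% and 24.2%. These pairs thus had their extremes on different days. Rpl39 had 0% and 46.4%, 0% in both, and 68.6% in both. Near-identical stretches of Rpl36a and Rpl36al could share reads, which was not tested.

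Other genes of the ribosome pathway were read the same way. For 19 measured genes of ribosome assembly and rescue, median exonic coverage was 13.7%, 9.67% and 11.3%, with 10 lower and 5 higher at day 4 than at day 0 in both replicates, where 25.4% and 30.8% of all genes were. Tsr1, a factor of 40S maturation, had 35.8%, 7.38% and 11.2%, and Rrs1, of 60S assembly, had 37.0%, 20.7% and 13.1%. Pelo and Hbs1l, which rescue stalled ribosomes in red cell precursors and elsewhere, had 10.6%, 12.3% and 10.9%, and 15.6%, 10.1% and 22.9%. Tsr1 and Rrs1 thus stood lower on both days of DMSO, and Hbs1l at day 2 only. Among 15 measured regulators of TOP messages 5 were higher and 5 lower at day 4, near the background in both directions. The 10 TOP translation factors had 17.6%, 10.8% and 20.2%, with 1 higher and 3 lower, against the same shares of all genes. Their median difference by gene between days 4 and 0 was -3.87 percentage points, opposite to that of the group medians. Over the replicate pairs it was -1.95 to -0.24, which does not include the merged value.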

How the data were processed

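PIP-seq reads of 24 libraries were trimmed by the authors with cutadapt 1.2.1 and aligned to mm10 with TopHat2 2.0.10, with up to 10 hits per read. Protein-protected sites were called by the authors with a modified CSAR Poisson test at a false discovery rate of 5%. The deposited lists, 1 per day, give each site's position, an enrichment score and the names of the merged calls. Read depth is unknown from these files, so no value rests on counts of reads.

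Sites of 20 to 40 nt were left out, as the length of ribosome footprints. Genes came from GENCODE vM21 (GRCm38), on 21 chromosomes, and short sequences from the genome and RefSeq GRCm38.p6. A minimum overlap of 1 nt was used. Coverage, classes and intervals were computed with Python 3.11.15 (pandas 2.3.3, numpy 2.4.6, statsmodels 0.14.6, scipy 1.17.1, matplotlib 3.10.9) and samtools 1.23.1. The overlap arithmetic and the rule for non-overlapping replicates were tested on simulated data, and the classes and confidence intervals were not. Groups followed the sample titles, and replicate numbers were not linked across days. Each day was compared with day 0 by the 4 pairs of replicates.

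The family, the gene lists and the measures were chosen with earlier results of these data known, and the values by nuclease on the longest-CDS transcript were added after the data had been seen. Named genes were the Diamond-Blackfan anaemia list, paralogue pairs, per subunit the 3 largest exonic differences in each direction without overlap, the 3 highest mean coverages, the 3 genes with most intronic sites and the highest-scoring site of each day. Rps20, Rpl6, Rpl38, Rpl12, Rpsa, Rps16, Rpl7l1 and the genes of the other lists were named after their values were seen. Some genes and sequences chosen by these rules are not reported here.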

Additional observations from a re-analysis of the deposited data

Results flagged for a closer look

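Pooled CDS coverage of ribosomal protein genes differed between day 4 and day 0 by 10.1 percentage points in the dsRNase call sets and by -0.786 in the ssRNase call sets, with every replicate pair above 0 in the first and below 0 in the second. Coverage of the snoRNAs in their introns differed by 5.94 percentage points with dsRNase and by -45.4 with ssRNase, again with all pairs on opposite sides of 0. Both results were picked out because the nucleases went in opposite directions, and the difference between them was not tested. In snoRNAs of 143 other host genes the day 4 values also lay above those of day 0 with dsRNase and below them with ssRNase.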

How the results depend on the processing

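No paired analysis was possible because no result comes from a test and the sources used here do not say whether replicate numbers link cultures of different days. Of 102 alternatives, 62 stayed within the spread between replicates (or within 1.5 times for counts) and 96 kept the direction. The dsRNase CDS difference between days 4 and 0 was 8.08 to 10.8 percentage points, and the ssRNase snoRNA difference was -45.6 to -39.8. All values below are percentage points unless they count genes, and the intron share is that of PPSs touching an intron (main value -8.09). With PPSs of a score of 10 or more, the exonic difference of day 2 was -3.12, 25 genes were higher at day 4, the intron share differed by -12.8, large minus small coverage was 6.06, the snoRNA share was 20.9% and the ssRNase intron difference was -6.79. With calls of both replicates these were -0.93 for day 2, -13.4 for the intron share, 7.13 for large minus small, 24.7% for snoRNAs, -6.26 for ssRNase introns and -5.65 for dsRNase CDS at day 2. With PPSs that hold an ssRNase call, exonic coverage differed by -3.62 at day 4 and -1.93 at day 2, 3 genes were higher, the CDS share differed by 9.43, the intron share by -0.40, large minus small was 6.04 and the snoRNA share 12.6%. With PPSs that hold a dsRNase call, exonic coverage differed by 1.55 at day 4, the opposite direction, and by -3.20 at day 2, 26 genes were higher and 10 lower, the CDS share differed by 6.25, the intron share reversed to 1.05, the 5′ end differed by -0.75, large minus small was 5.51 and the snoRNA share 34%. On exons of the longest-CDS transcript, exonic coverage differed by 6.52 at day 4, a reversal, and by -3.90 at day 2, 28 genes were higher and 11 lower, large minus small was 3.67 and ssRNase minus dsRNase -15.03. The first 30 nt of the message differed by -4.15 and the first 100 nt by 0.42, a reversal. With at least 50% of a PPS required inside a class, the intron share differed by -13.3 and the snoRNA share was 8.39%, and with all lengths the latter was 10.2%. Without snoRNA positions the ssRNase intron difference was -7.00. The causes of these moves were not tested.

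Leaving out a replicate lowers the joined coverage of its day by construction. It gave -6.75 to 3.88 for exonic coverage at day 4, with 2.59 and 3.88 without day 0 replicate 1 and replicate 2, and -8.78 to -0.49 at day 2. It gave 13.7 to 18.5 for the CDS share, -11.8 to -5.54 for the intron share, -5.19 to -0.20 for the 5′ end, 7.30 to 7.66 for large minus small, -4.57 to -0.59 for ssRNase minus dsRNase (main value -4.53) and 15.3% to 16.4% for the snoRNA share (main value 11.6%). For the added measures it gave 5.17 to 15.1 for dsRNase CDS at day 4, -7.33 to -6.22 at day 2, -8.55 to -7.63 for ssRNase introns and -49.0 to -41.8 for ssRNase snoRNAs. The dsRNase CDS value was 5.17 without day 4 replicate 1 and 15.1 without day 4 replicate 2.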
